A study of Mus musculus with 35 samples.

Results

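The signals that build and steady blood vessels were followed here through 10 genes: the vascular endothelial growth factor (VEGF) ligands Vegfa, Vegfb, Vegfc and Pgf, the VEGF receptors Flt1 and Kdr, the angiopoietins Angpt1 and Angpt2, their receptor Tek, and Hif1a, which encodes the oxygen-regulated subunit of hypoxia-inducible factor 1. The genes were chosen by name, with earlier results of these data known. All 10 were found among the 21203 protein-coding genes of the table, and all 10 passed the filter on low counts, which kept 17131 genes. RNA-seq was done on 34 male C57BL/6N mice, aged 8 to 9 weeks at the start, with 1 library per mouse. Sham mice (n = 5) had neither the injury nor an injection, and the other mice had a closed head injury. At 5 days after injury they received PBS, mesenchymal stem/stromal cells (MSCs), or MSCs transfected with synthetic mRNA for interleukin-4 (IL-4 MSCs), injected into the left hippocampus. Tissue was taken at 1 week post-injury (wpi), 2 days after treatment, or at 3 wpi, 16 days after treatment. Each treatment had 5 mice at each time, except PBS at 3 wpi, which had 4. The Sham group pooled 2 mice taken at 1 week and 3 taken at 3 weeks. The labels give the tissue as left cortex, while the injections were made into the hippocampus below it. The MSCs were 1 commercial lot of mouse cells from the same strain, so RNA of surviving grafted cells and RNA of the host were counted together and cannot be told apart for a single gene. Summed RNA of 8 posterior Hox genes, which mark cells of the trunk and are little used in this brain tissue, was 1.33 to 4.36 CPM in MSCs and 2.49 to 4.50 CPM in IL-4 MSCs at 1 wpi and 0.691 to 1.47 CPM in the other 5 groups, where 5 of the 8 did not exceed 3 counts in any library. The part of grafted cells in the levels of the 10 genes was not tested. In the mouse labels, 1 number is constant within each treated group and differs between groups, and whatever it stands for cannot be told apart from the group.

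Libraries held 29838423 to 41554322 estimated counts, and levels are given as counts scaled by the library's total (CPM), where 3 counts corresponded to 0.0722 to 0.101 CPM. The 8 neuron markers summed to 8299.9 CPM or more in every library. The tissue was not uniform, and summed choroid plexus markers ranged from 23.7 to 1498 CPM. Summed striatum markers were 445 to 2832 CPM in IL-4 MSCs at 3 wpi, with a mean of 1760 CPM, and 268 to 1021 CPM in the other groups, whose means were 416 to 773 CPM. Differences are log2 fold changes ± standard error (SE) from edgeR's quasi-likelihood test in 1 fit of all libraries, with p-values adjusted by the Benjamini-Hochberg method over the 17131 genes, and a gene is said to have changed where the adjusted p was under 0.05. The SE was worked back from the log2 fold change and the test's F statistic. The measurements are on whole tissue, so more cells of a type and more RNA per cell cannot be told apart.

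VEGF-A binds Flt1 and Kdr on endothelial cells. Kdr carries most of the signal for endothelial growth and permeability, while Flt1 binds the ligand tightly with weaker kinase activity and also binds VEGF-B and placental growth factor, the product of Pgf. VEGF-C acts mainly through Flt4, the receptor of lymphatic endothelium, and also on Kdr. Angiopoietin-1 activates Tek (Tie2) and keeps vessels quiet and tight, whereas angiopoietin-2, made by endothelial cells during remodelling, commonly opposes it. HIF-1 is controlled mainly through the stability of its alpha subunit rather than its mRNA, and Vegfa is among its best known targets in brain.

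Positions are given on GRCm38 from GENCODE M21. Vegfa (ENSMUSG00000023951) occupies chr17:46016993-46032369 on the minus strand. Of the receptors, Flt1 (ENSMUSG00000029648) is at chr5:147561604-147726011 and Kdr (ENSMUSG00000062960) at chr5:75932827-75978458, both on the minus strand, and Tek (ENSMUSG00000006386) is at chr4:94739289-94874976 on the plus strand. Angpt1 (ENSMUSG00000022309) is at chr15:42424723-42676977 on the minus strand, and Angpt2 (ENSMUSG00000031465) at chr8:18690263-18741562 on the minus strand. Hif1a (ENSMUSG00000021109) is at chr12:73901375-73947530 on the plus strand, where 148 of its 5896 exonic bases also belong to the protein-coding gene Gm49321 on the same strand, so reads from those bases could have been shared. Pgf (ENSMUSG00000004791) is at chr12:85166635-85177790, Vegfb (ENSMUSG00000024962) at chr19:6982473-6987651, both on the minus strand, and Vegfc (ENSMUSG00000031520) at chr8:54077606-54187096 on the plus strand.

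RefSeq promoter windows on GRCm38.p6 were found for 8 of the 10 genes. The 250 bases before the start are printed for the ligand and the 3 receptors whose RNA was higher together in IL-4 MSCs at 1 wpi, to show which letters known to be read by hypoxia-inducible factor and by ETS factors are there. Capitals mark the HIF core letters ACGTG or GCGTG and the ETS core letters AGGAAG, each searched on both strands, and no marked matches of different motifs overlap in these windows. The windows are chr17:46032378-46032627 for Vegfa, chr5:147726012-147726261 for Flt1 and chr5:75978456-75978705 for Kdr, each read on the minus strand, and chr4:94739039-94739288 for Tek on the plus strand.
Vegfa: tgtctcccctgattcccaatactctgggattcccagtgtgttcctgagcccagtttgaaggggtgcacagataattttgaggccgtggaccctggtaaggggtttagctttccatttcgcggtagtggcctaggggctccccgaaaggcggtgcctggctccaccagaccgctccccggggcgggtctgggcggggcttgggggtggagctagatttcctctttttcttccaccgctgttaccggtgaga
Flt1: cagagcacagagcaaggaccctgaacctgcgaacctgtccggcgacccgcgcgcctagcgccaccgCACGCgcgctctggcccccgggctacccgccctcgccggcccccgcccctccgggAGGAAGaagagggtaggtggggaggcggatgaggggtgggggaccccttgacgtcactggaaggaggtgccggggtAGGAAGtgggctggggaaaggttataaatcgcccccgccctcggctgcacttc
Kdr: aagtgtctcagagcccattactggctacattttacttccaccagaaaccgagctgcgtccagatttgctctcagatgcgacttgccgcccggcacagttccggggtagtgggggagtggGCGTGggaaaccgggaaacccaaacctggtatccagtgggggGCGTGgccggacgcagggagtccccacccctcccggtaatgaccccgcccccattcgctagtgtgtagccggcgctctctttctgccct
Tek: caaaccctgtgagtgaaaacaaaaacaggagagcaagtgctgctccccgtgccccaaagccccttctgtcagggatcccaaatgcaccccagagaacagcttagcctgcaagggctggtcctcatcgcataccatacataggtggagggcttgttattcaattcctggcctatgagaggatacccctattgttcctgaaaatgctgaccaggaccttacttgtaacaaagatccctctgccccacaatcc
The HIF core occurred 2 times in Kdr and 1 time in Flt1, and the ETS core occurred 2 times in Flt1. Neither set of letters occurred in the Vegfa and Tek windows shown. A second annotated Vegfa start had 2 HIF cores in its window, chr17:46025164-46025413. That window lies inside the gene as positioned above and can hold transcribed sequence. Over all 10 windows of the 8 genes, that one included, 6 held a HIF core and 1 an ETS core, where 38.6% and 29.5% of all 32851 promoter windows of this length hold them. Sequence further upstream was not searched. A match describes letters only, and no binding was measured.

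Levels of different genes were compared in TPM, a share of transcripts that corrects for transcript length. In Sham, Vegfb (72.2 ± 5.30 TPM, SD, n = 5) and Vegfa (69.5 ± 10.3 TPM) were the most abundant of the 10 and their ranges overlapped. Hif1a followed at 40.1 ± 2.43 TPM and Flt1 at 28.7 ± 1.39 TPM, each with a range apart from its neighbours. Tek (7.72 ± 0.653 TPM) and Kdr (6.95 ± 0.702 TPM) overlapped each other. Angpt1 (3.55 ± 0.475 TPM), Pgf (2.85 ± 0.575 TPM), Vegfc (2.52 ± 0.380 TPM) and Angpt2 (2.05 ± 0.270 TPM) formed the lowest part of the order, in which each overlapped the next. In IL-4 MSCs at 1 wpi the order changed at the top, where Vegfa (89.6 ± 8.98 TPM) stood apart from Vegfb (69.1 ± 6.48 TPM). Near the bottom Angpt2 (3.64 ± 0.702 TPM) came before Vegfc (2.77 ± 0.533 TPM), with overlapping ranges, as it also did in MSCs at both times.

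**Figure D1:**
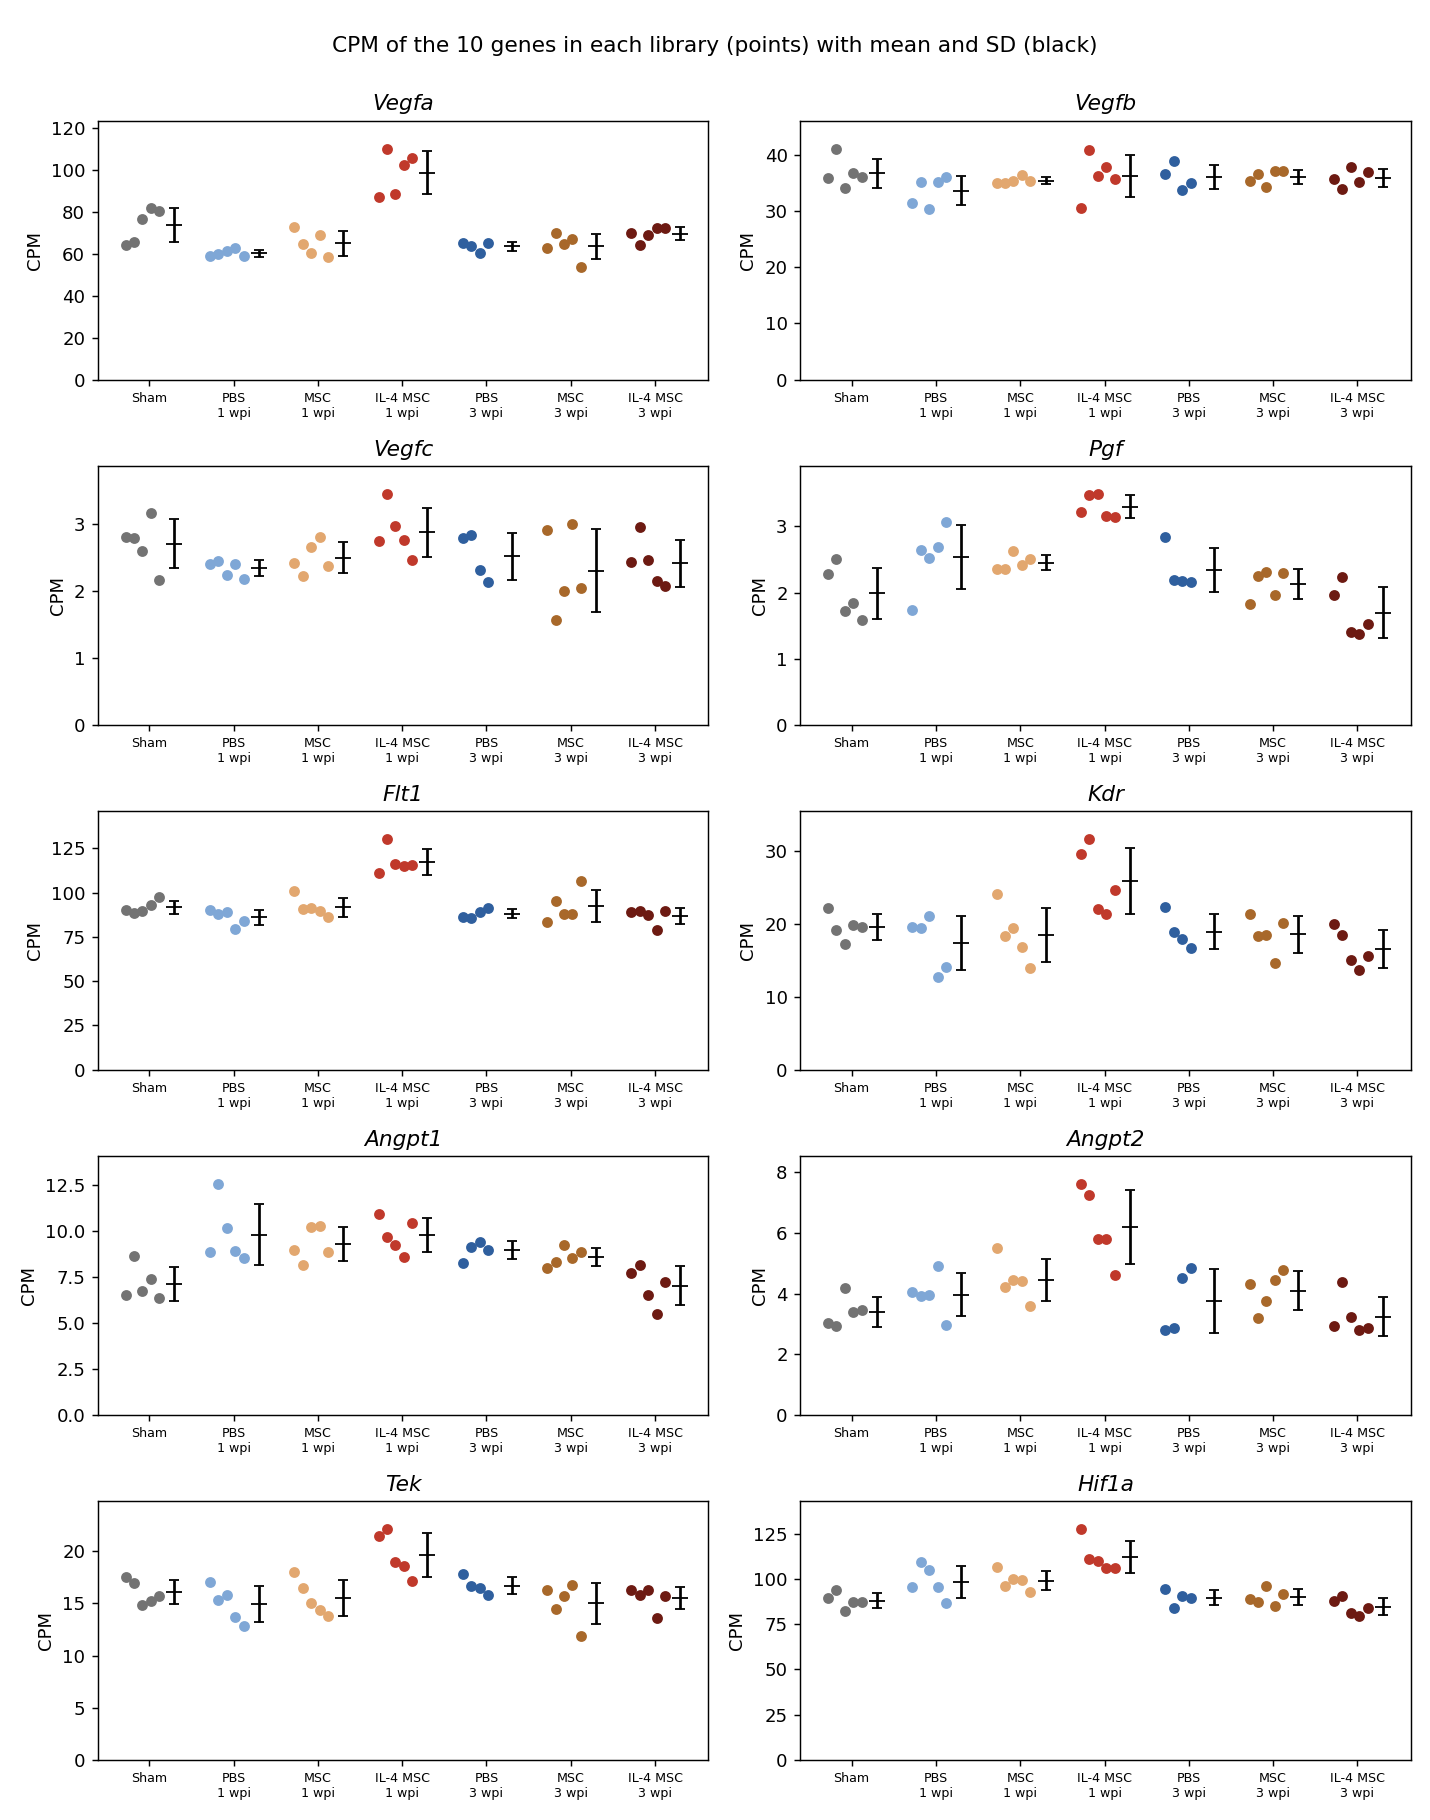
Each panel plots the CPM of 1 gene (vertical axis, from 0) in every library, by group along the horizontal axis, with points for single mice and a black bar for the mean and SD of the group. The 5 IL-4 MSC libraries at 1 wpi sit above all other libraries for Vegfa (87.2 CPM or more), Flt1 (111 CPM or more) and Pgf (3.14 CPM or more), while the libraries of Vegfb span 30.3 to 41.0 CPM over all groups.

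The first comparison asks how mice given IL-4 MSCs differed, 2 days after treatment, from injured mice given PBS. Cells, transfection and IL-4 mRNA enter it together. Vegfa, the receptors Flt1, Kdr and Tek, Angpt2 and Hif1a rose in IL-4 MSCs relative to PBS at 1 wpi, by log2 0.15 to 0.67, and no member was lower. These are 6 of the 10 genes, where 17.4% of all tested genes were called in the same comparison. The median log2 fold change of the 10 was 0.35, and that of all genes -0.0042. Ranges of the libraries did not overlap for 6 of the 10 (Vegfa, Vegfc, Pgf, Flt1, Kdr and Tek), where this held for 14.2% of all tested genes. Markers of other cell types moved in the same libraries. Of 10 macrophage and microglia markers 6 rose and 0 fell relative to PBS, and 6 rose and 0 fell relative to MSCs, with sums of 513 to 664 CPM in IL-4 MSCs, 357 to 479 CPM in PBS, 398 to 500.2 CPM in MSCs and 204 to 282 CPM in Sham. Of the 8 neuron markers 2 fell and 0 rose relative to PBS. The part of these cells in the levels of Vegfa, Hif1a and the other members was not tested.

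Among the ligands, Vegfa stood at 87.2, 110.0, 88.3, 102 and 106 CPM in the 5 IL-4 MSC libraries and at 59.0, 59.9, 61.3, 62.9 and 58.9 CPM in the 5 PBS libraries. Every IL-4 MSC library was above every PBS library, and the PBS libraries lay close together. The log2 fold change was 0.67 ± 0.073 (adjusted p = 2.84e-08). Pgf, whose product binds Flt1, stood at 3.22, 3.48, 3.49, 3.16 and 3.14 CPM against 1.74, 2.65, 2.53, 2.69 and 3.06 CPM. Although these ranges did not overlap, the highest PBS library lay close below the IL-4 MSC libraries and the difference was not called (log2 0.34 ± 0.13, adjusted p = 0.0757). Without that PBS library, replicate 4, it was called. Vegfc ranged from 2.46 to 3.45 CPM with IL-4 MSCs and from 2.18 to 2.45 CPM in PBS, with a log2 difference of 0.27 ± 0.14 that was not called (adjusted p = 0.198). Vegfb, which acts through Flt1, was 36.2 ± 3.74 CPM against 33.6 ± 2.56 CPM, and the 95% interval of the log2 difference ran from -0.04 to 0.19.

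All 3 receptors of the list were higher. Flt1 stood at 111, 130.2, 116, 115 and 116 CPM with IL-4 MSCs and at 90.1, 87.7, 88.9, 79.3 and 84.0 CPM in PBS. The groups were far apart, and the log2 fold change was 0.41 ± 0.051 (adjusted p = 2.89e-07). Kdr stood at 29.6, 31.6, 22.0, 21.4 and 24.7 CPM against 19.5, 19.4, 21.01, 12.8 and 14.1 CPM, with a log2 fold change of 0.54 ± 0.14 (adjusted p = 0.00638). The Kdr libraries were widely spread in both groups and the closest pair was 21.4 and 21.01 CPM. Tek stood at 21.4, 22.1, 19.0, 18.6 and 17.1 CPM against 17.1, 15.3, 15.8, 13.7 and 12.8 CPM, a log2 fold change of 0.36 ± 0.088 (adjusted p = 0.00390). The lowest IL-4 MSC library and the highest PBS library of Tek met at 17.1 CPM with almost no gap.

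The angiopoietins parted. Angpt2 stood at 7.61, 7.24, 5.79, 5.81 and 4.60 CPM with IL-4 MSCs and at 4.06, 3.92, 3.96, 4.92 and 2.95 CPM in PBS. The lowest IL-4 MSC library fell below the highest PBS library, and the log2 fold change was 0.61 ± 0.16 (adjusted p = 0.00727). Angpt1 was 9.78 ± 0.928 CPM with IL-4 MSCs and 9.79 ± 1.65 CPM in PBS, and the 95% interval of its log2 difference ran from -0.25 to 0.17. The ratio of Angpt2 to Angpt1 in TPM was 0.771 ± 0.143 against 0.498 ± 0.116 (SD, n = 5), with an exact permutation p of 0.0238 (two-sided) and an adjusted p of 0.238 over 60 tests of ratios, so the higher ratio was not called after correction, which a single ratio could not pass at these group sizes. Hif1a stood at 128, 111, 109.9, 106 and 106 CPM against 95.3, 109, 105, 95.5 and 87.0 CPM. These ranges overlapped, the difference was small, and the call was at the edge of the threshold (log2 0.15 ± 0.053, adjusted p = 0.0466). The call on Hif1a was lost when any 1 of 5 libraries was left out (PBS replicates 0, 3 and 4, IL-4 MSCs replicates 0 and 1), with an adjusted p of up to 0.132.

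The comparison with MSCs sets transfected cells that carried IL-4 mRNA against cells that were not transfected. No control with another mRNA was sequenced, so IL-4 and the transfection itself cannot be told apart. At 1 wpi Vegfa, Flt1, Kdr and Tek stood above MSCs in the IL-4 MSC group, 4 of the 10 genes, where 8.69% of all tested genes were called. The log2 fold change was 0.58 ± 0.073 for Vegfa (adjusted p = 6.82e-07), 0.33 ± 0.051 for Flt1 (adjusted p = 1.52e-05), 0.46 ± 0.14 for Kdr (adjusted p = 0.0338) and 0.31 ± 0.088 for Tek (adjusted p = 0.0185). In MSCs, Vegfa stood at 72.9, 64.8, 60.4, 69.0 and 58.5 CPM, all below the lowest IL-4 MSC library at 87.2 CPM. Flt1 in MSCs stood at 101, 90.5, 91.2, 89.5 and 86.2 CPM, again all below the lowest IL-4 MSC library at 111 CPM. Kdr and Tek overlapped between these groups, because MSCs replicate 0 reached 24.1 CPM for Kdr and 18.0 CPM for Tek. The call on Kdr was lost without any 1 of 5 libraries (MSCs replicates 1, 3 and 4, IL-4 MSCs replicates 0 and 1), with an adjusted p of up to 0.133, and the call on Tek without any 1 of 3 (MSCs replicate 4, IL-4 MSCs replicates 0 and 1), with an adjusted p of up to 0.0713.

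Angpt2, Pgf and Hif1a had positive differences from MSCs that were not called. Angpt2 was 6.21 ± 1.22 CPM against 4.44 ± 0.688 CPM (log2 0.46 ± 0.16, adjusted p = 0.0770). Pgf had 2.36, 2.35, 2.63, 2.42 and 2.50 CPM in MSCs, below every IL-4 MSC library (log2 0.40 ± 0.13, adjusted p = 0.0594). Hif1a was 112 ± 9.01 CPM against 99.0 ± 5.27 CPM (log2 0.15 ± 0.053, adjusted p = 0.0702). DESeq2 called 7 of the 10 in this comparison, adding these 3 genes, where 9.28% of all tested genes were called. Leaving out IL-4 MSCs replicate 0, IL-4 MSCs replicate 1 or MSCs replicate 4 reduced the count of edgeR's test to 2. Ranges did not overlap for 3 of the 10 (Vegfa, Pgf and Flt1), where this held for 9.68% of all tested genes. No difference between MSCs and PBS was called in the 10 genes at 1 wpi, where 0.123% of all tested genes were called by edgeR's test, and 0 of the 10 had an unadjusted p under 0.05. DESeq2 and limma-voom also called 0 of the 10 there, where 0.152% and 0.0817% of all tested genes were called.

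**Figure D2:**
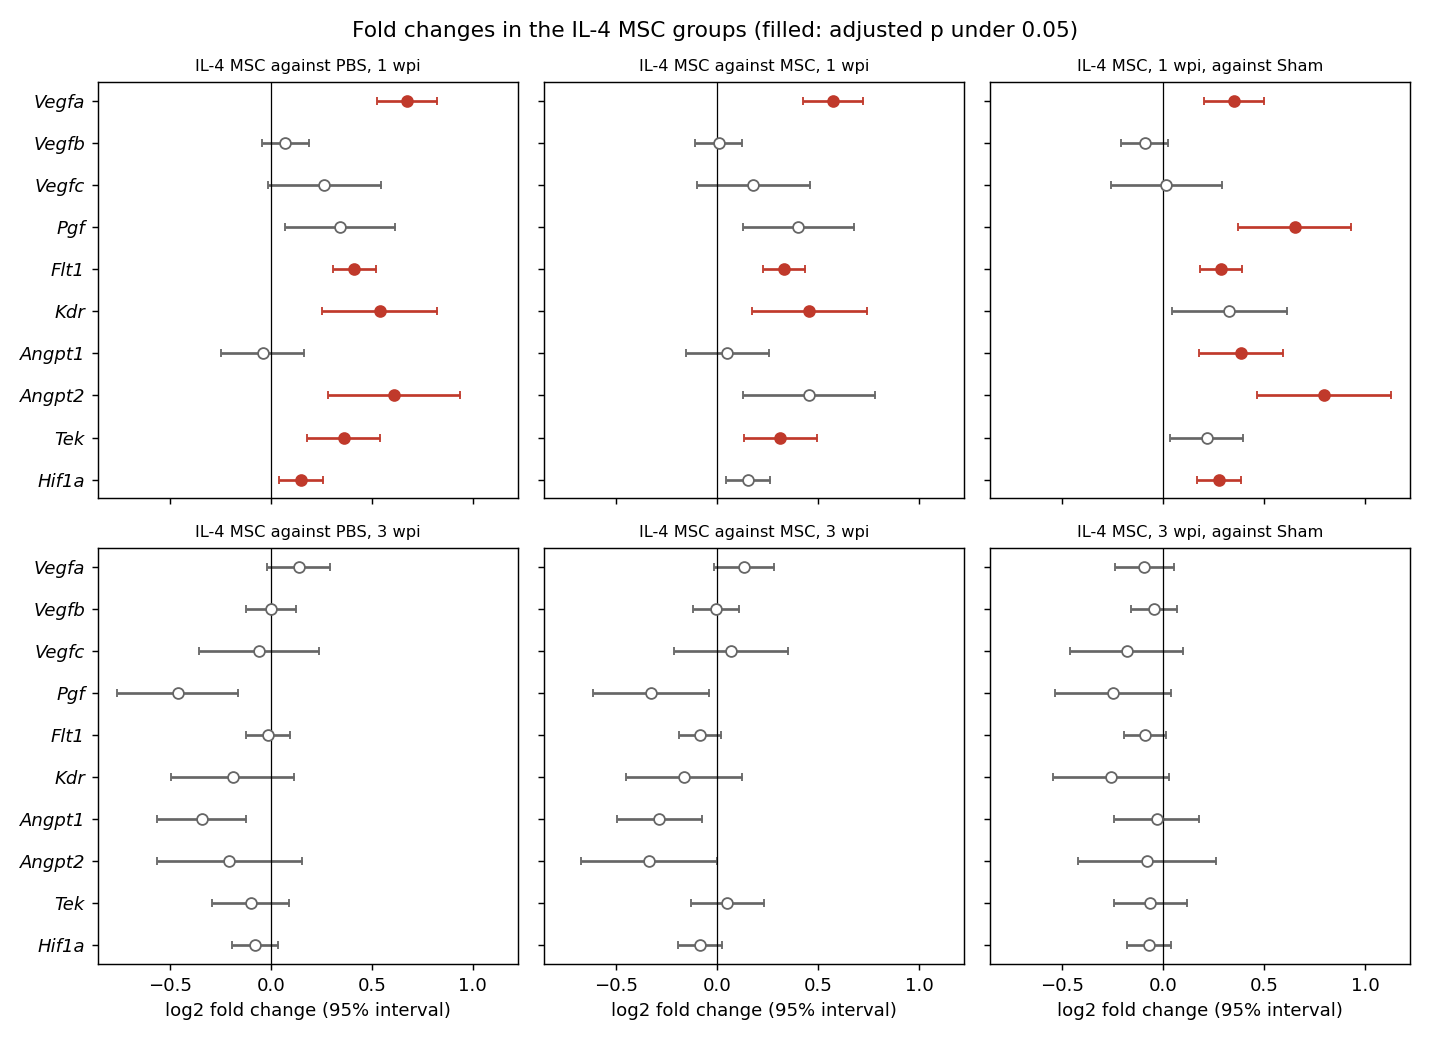
Each panel plots the log2 fold change (horizontal axis) with its 95% interval for the 10 genes (vertical axis) in 1 comparison of the IL-4 MSC groups, with filled points for an adjusted p under 0.05. At 1 wpi (upper row) 6, 4 and 6 genes are filled, and at 3 wpi (lower row) 0 are.

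Against Sham, which shows the injury, the injection and the treatment together, IL-4 MSCs at 1 wpi had 6 genes higher and 0 lower (Vegfa, Pgf, Flt1, Angpt1, Angpt2 and Hif1a), where 37% of all tested genes were called. In this comparison 7 of the 8 neuron markers were lower and 0 higher, with sums of 8299.9 to 8880 CPM against 9027 to 10180 CPM in Sham, and 9 of the 10 macrophage and microglia markers were higher. The 8 astrocyte markers summed to 5954 to 6768 CPM against 5129 to 5611 CPM in Sham. The part of these cell types in the values was not tested. Angpt2 showed the largest log2 fold change of the 10, at 0.80 ± 0.16 (adjusted p = 0.000196), with Sham libraries at 3.03, 2.94, 4.19, 3.38 and 3.46 CPM, all below the lowest IL-4 MSC library at 4.60 CPM. Pgf followed at 0.65 ± 0.14 (adjusted p = 0.000273), from Sham libraries at 2.28, 2.50, 1.72, 1.84 and 1.59 CPM. Both were separated from Sham in all 5 libraries. Angpt1 was higher by 0.38 ± 0.10 (adjusted p = 0.00322), Vegfa by 0.35 ± 0.072 (adjusted p = 0.000240), Flt1 by 0.29 ± 0.051 (adjusted p = 3.61e-05) and Hif1a by 0.27 ± 0.054 (adjusted p = 0.000114). Ranges did not overlap for 5 of the 10 (Vegfa, Pgf, Flt1, Angpt2 and Hif1a), where this held for 25.7% of all tested genes. Kdr (log2 0.33 ± 0.14, adjusted p = 0.0646) and Tek (log2 0.22 ± 0.088, adjusted p = 0.0542) were not called in this comparison. DESeq2, library size scaling and the fit of both groups alone each called 8 of the 10, these receptors included. In these settings 35.9%, 32.2% and 36.4% of all tested genes were called.

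PBS mice at 1 wpi differed from Sham in the opposite sense for Vegfa. Sham mice were not injected, so injury and injection cannot be told apart in this comparison. Cell markers moved too. The 8 astrocyte markers summed to 6333 to 6734 CPM in PBS, 6126 to 7186 CPM in MSCs and 5129 to 5611 CPM in Sham. Macrophage and microglia markers summed to 357 to 479 CPM in PBS, 398 to 500.2 CPM in MSCs and 204 to 282 CPM in Sham. The part of these cells in the values below was not tested. Vegfa was lower in PBS, with Sham libraries at 64.2, 65.7, 76.5, 82.0 and 80.5 CPM and PBS libraries between 58.9 and 62.9 CPM (log2 -0.32 ± 0.073, adjusted p = 0.00211). Angpt1, the vessel-stabilising ligand, was higher in PBS, at 8.87, 12.5, 10.1, 8.91 and 8.52 CPM against 6.49, 8.62, 6.72, 7.38 and 6.35 CPM (log2 0.42 ± 0.10, adjusted p = 0.00404). Only the highest Sham library reached into the PBS range of Angpt1. Vegfb was called lower at the edge of the threshold (log2 -0.16 ± 0.057, adjusted p = 0.0499), a call lost without any 1 of 7 libraries (Sham replicates 0, 1, 3 and 4, PBS replicates 0, 1 and 2). These 3 calls of 10 stand beside 13.8% of all tested genes called. In MSCs 2 of the 10 were called against Sham, where 17.8% of all tested genes were: Vegfa at log2 -0.23 ± 0.073 (adjusted p = 0.0275) and Angpt1 at 0.33 ± 0.10 (adjusted p = 0.0211). The Vegfa call in MSCs was lost without any 1 of 6 libraries (Sham replicates 2, 3 and 4, MSCs replicates 1, 2 and 4), and the Angpt1 call without any 1 of 4 (Sham replicates 0 and 4, MSCs replicates 2 and 3). The 3 comparisons share the same Sham libraries, so Angpt1 above Sham in all 3 injured groups at 1 wpi is not 3 independent results.

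The Sham libraries differed by week for some of these genes. Vegfa was 64.2 and 65.7 CPM in the 2 Sham mice of 1 week and 76.5 to 82.0 CPM in the 3 of 3 weeks (log2 0.28 ± 0.094 for 3 weeks minus 1 week, adjusted p = 0.148), and Pgf was 2.28 and 2.50 CPM against 1.59 to 1.84 CPM (log2 -0.50 ± 0.18, adjusted p = 0.174). When each group was set against Sham of its own week alone, the Vegfa difference between PBS and Sham at 1 wpi was -0.17 ± 0.086 (adjusted p = 0.219) and no longer called, while that of IL-4 MSCs from Sham was 0.53 ± 0.088 (adjusted p = 2.18e-05). In the same setting the calls for Angpt1 in PBS (log2 0.31 ± 0.13, adjusted p = 0.130), in MSCs (log2 0.23 ± 0.13, adjusted p = 0.256) and in IL-4 MSCs (log2 0.29 ± 0.13, adjusted p = 0.0957) were lost, as was the call for Pgf in IL-4 MSCs (log2 0.38 ± 0.16, adjusted p = 0.0689). Vegfb was the 1 gene still called for PBS at 1 wpi with Sham of its own week, again lower, where 11.2% of all tested genes were called. At 3 wpi the same setting called Vegfa lower in MSCs than in Sham (log2 -0.34 ± 0.075, adjusted p = 0.0259).

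At 3 wpi edgeR's test called none of the 10 genes between any pair of treatments or against Sham. IL-4 MSCs at this time exceeded PBS in 12 of the 12 striatum markers, MSCs in 11 and Sham in 10. With these markers as a covariate 0 of the 10 genes were called in each of these comparisons. That fit called only 0.0525% of all tested genes when PBS was the reference, 0% for MSCs and 0.642% for Sham. Its 0 therefore says little about these 10. Without the covariate, 2.94% of all tested genes were called in IL-4 MSCs relative to PBS. The share was 3.47% relative to MSCs and 4.27% relative to Sham. Unadjusted p-values under 0.05 were found for 2 of the 10, 2 of the 10 and 0 of the 10 in these comparisons, and for Vegfa and Angpt1 in both PBS and MSCs against Sham. DESeq2 called 0 in each, where 4.48%, 5.03% and 6.05% of all tested genes were called for IL-4 MSCs against PBS, MSCs and Sham. The nearest were Angpt1, which was 7.73, 8.16, 6.52, 5.47 and 7.23 CPM with IL-4 MSCs and 8.26, 9.11, 9.41 and 8.95 CPM in PBS with no overlap, which held for 3.15% of all tested genes (log2 -0.34 ± 0.11, adjusted p = 0.0798), and Pgf, which was 1.70 ± 0.380 CPM against 2.34 ± 0.334 CPM (log2 -0.46 ± 0.15, adjusted p = 0.0820). Both had negative differences, the opposite sign from Pgf at 1 wpi. Leaving out IL-4 MSCs replicate 1 at 3 wpi brought the count to 2 against PBS and to 2 against MSCs. Vegfa was 69.6 ± 3.19 CPM in IL-4 MSCs, 63.6 ± 6.03 CPM in MSCs and 63.6 ± 2.29 CPM in PBS (n = 4), and the 95% interval of the log2 difference from PBS ran from -0.02 to 0.30. MSCs and PBS were compared too, with 0.0817% of all tested genes called, and in PBS and MSCs against Sham 0.0292% and 1.15% of all tested genes were called.

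Between 1 and 3 wpi, 8 of the 10 genes fell in IL-4 MSCs, all but Vegfb and Vegfc, where 33% of all tested genes were called. The 8 did not overlap between the times, where this held for 20.9% of all tested genes. Striatum markers were higher at 3 wpi in this comparison (10 of 12), as were neuron markers (5 of 8), while 8 of 10 macrophage and microglia markers and 9 of 10 stromal markers were lower. With striatum markers as a covariate 8 of the 10 genes were called, where 32.4% of all tested genes were. With endothelial markers 2 were called (Vegfa and Pgf), where 4.66% of all tested genes were. The part of neurons, macrophages and stromal cells was not tested. Pgf fell by 0.90 ± 0.14 on the log2 scale (adjusted p = 4.64e-06) and Angpt2 fell by 0.88 ± 0.16 (adjusted p = 7.76e-05). For Angpt2 the 3 wpi libraries stood at 2.94, 4.37, 3.22, 2.81 and 2.86 CPM, all below the lowest 1 wpi library at 4.60 CPM. Kdr fell by 0.58 ± 0.14 (adjusted p = 0.00147) and Vegfa fell by 0.44 ± 0.072 (adjusted p = 1.32e-05). Angpt1, for which no difference from PBS was called at 1 wpi, fell by 0.42 ± 0.10 (adjusted p = 0.00180). Flt1 fell by 0.38 ± 0.051 (adjusted p = 6.31e-07), Hif1a by 0.34 ± 0.054 (adjusted p = 6.05e-06) and Tek by 0.28 ± 0.088 (adjusted p = 0.0139). In PBS and in MSCs, 0 of the 10 changed between the times by edgeR's test or DESeq2. By edgeR's test 0 had an unadjusted p under 0.05. Of all tested genes, edgeR's test called 5.51% in PBS and 6.15% in MSCs, and DESeq2 6.55% and 7.07%.

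Whether the treatment difference itself changed with time was tested as an interaction. The signed log2 difference of IL-4 MSCs from PBS was higher at 1 wpi than at 3 wpi for 6 of the 10, where 4.72% of all tested genes were called: Angpt2 (log2 0.82 ± 0.24, adjusted p = 0.0413), Pgf (0.81 ± 0.20, adjusted p = 0.0135), Kdr (0.73 ± 0.20, adjusted p = 0.0327), Vegfa (0.54 ± 0.11, adjusted p = 0.00173), Tek (0.46 ± 0.13, adjusted p = 0.0323) and Flt1 (0.43 ± 0.075, adjusted p = 0.000430). The interaction draws on both times. At 3 wpi the differences from PBS were -0.46 for Pgf, -0.21 for Angpt2, -0.19 for Kdr, -0.10 for Tek, -0.01 for Flt1 and 0.14 for Vegfa. None of these was called. Against MSCs the interaction test called 6 of the 10, where 7.86% of all tested genes were called. These were Angpt2 (log2 0.79 ± 0.23, adjusted p = 0.0283), Pgf (0.73 ± 0.20, adjusted p = 0.0164), Kdr (0.62 ± 0.20, adjusted p = 0.0497), Vegfa (0.44 ± 0.10, adjusted p = 0.00549), Flt1 (0.42 ± 0.072, adjusted p = 0.000247) and Hif1a (0.24 ± 0.076, adjusted p = 0.0474). At 3 wpi the differences from MSCs were -0.34 for Angpt2, -0.33 for Pgf, -0.16 for Kdr, -0.08 for Flt1, -0.08 for Hif1a and 0.13 for Vegfa. None of these was called either. The 2 sets of tests share the IL-4 MSC libraries. Against PBS the count fell to 3 without PBS replicate 4 or IL-4 MSCs replicate 0 or 1 at 1 wpi, or without PBS replicate 0 or IL-4 MSCs replicate 3 at 3 wpi. Against MSCs it fell to 3 without MSCs replicate 4 or IL-4 MSCs replicate 0 or 1 at 1 wpi, or without MSCs replicate 4 or IL-4 MSCs replicate 3 or 4 at 3 wpi. Vegfa and Flt1 stayed called in both tests whichever library was left out, as did Pgf against MSCs, with adjusted p-values of at most 0.0138 for Vegfa, 0.00175 for Flt1 and 0.0369 for Pgf. With striatum markers as a covariate the count was 5 against PBS and 3 against MSCs, where 4.71% and 6.23% of all tested genes were called. With endothelial markers as a covariate, 0 of the 10 were called in either test. Only 0.286% (PBS) and 0.73% (MSCs) of all tested genes were then called, so the 0 says little about these 10. The Vegfa interaction was then 0.60 ± 0.15 against PBS (adjusted p = 0.0899) and 0.49 ± 0.13 against MSCs (adjusted p = 0.0841), no smaller than without the covariate and with a larger SE. The Flt1 interaction was smaller, at 0.19 ± 0.083 (adjusted p = 0.765) and 0.22 ± 0.075 (adjusted p = 0.251). The covariate itself differed between the groups compared, and the part of endothelial cells in the change of either gene was not tested. No change with time in the difference between MSCs and PBS was called for any of the 10 by edgeR's test or DESeq2. By edgeR's test 0 of the 10 had an unadjusted p under 0.05. Of all tested genes, edgeR's test called 0% there and DESeq2 0.035%.

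The other genes of the pathways were taken from lists compiled by hand, whose counts and medians stand beside 17.4% of all tested genes called and a median of -0.0042 against PBS, and 37% and -0.02 against Sham. Of the 4 other VEGF ligands, receptors and co-receptors measured, 1 rose and 0 fell in IL-4 MSCs relative to PBS at 1 wpi. This was Flt4, the receptor for VEGF-C, at 7.02 ± 0.634 CPM against 4.75 ± 0.378 CPM (log2 0.53, adjusted p = 0.00604). The co-receptors Nrp1 and Nrp2 had log2 differences of -0.09 and -0.08 that were not called. Against Sham 1 of these 4 genes was higher and 0 were lower. Of the 6 other angiopoietin and Tie genes, 1 was higher and 0 lower. Tie1, the partner of Tek on endothelial cells, was 17.1 ± 2.24 CPM against 12.3 ± 1.03 CPM (log2 0.44, adjusted p = 8.35e-05). Against Sham 3 of these 6 were higher, with Angptl4, an angiopoietin-like regulator of lipoprotein lipase, at log2 1.79 (adjusted p = 2.76e-06), Angptl2 at 0.59 (adjusted p = 0.00155) and Tie1 at 0.39 (adjusted p = 0.000152).

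Of 10 genes for other HIF subunits and the enzymes that control them, 0 rose and 1 fell relative to PBS in IL-4 MSCs at 1 wpi, with a median log2 fold change of -0.01. The lower gene was Arnt2, the brain form of the partner subunit, at log2 -0.13 (adjusted p = 0.0247). Against Sham 1 of the 10 was higher, the oxygen sensor Egln3 (log2 0.22, adjusted p = 0.0321), and 2 were lower, Arnt2 (-0.26, adjusted p = 3.39e-06) and Hif1an (-0.13, adjusted p = 0.00175).

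Of 29 genes known to be induced by hypoxia, 6 rose and 1 fell relative to PBS in IL-4 MSCs at 1 wpi, with a median of 0.08. The largest differences were in Lox, which crosslinks collagen (log2 3.26, adjusted p = 3.89e-10), Slc16a3, a lactate transporter (0.88, adjusted p = 0.000318), and Hk2, a hexokinase (0.77, adjusted p = 7.75e-06), and the lower gene was Hk1 (-0.15, adjusted p = 0.0346). Against Sham 11 were higher and 3 lower, among them Lox (4.52, adjusted p = 4.02e-13) and Hk2 (1.76, adjusted p = 3.15e-13). The lower genes were Hk1 (-0.18, adjusted p = 0.00403), Vldlr (-0.12, adjusted p = 0.0433) and Bnip3l (-0.09, adjusted p = 0.0110). Lox is also made by stromal cells, and 10 stromal markers summed to 301 to 417 CPM in IL-4 MSCs, 217 to 648 CPM in MSCs, 116 to 196 CPM in PBS at 1 wpi, and 71.3 to 118 CPM in Sham. The part of the stromal markers in these values was not tested.

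Of 19 tested genes tied to endothelial sprouting, 6 rose and 0 fell relative to PBS, with a median of 0.15. The largest differences were in Cxcr4, a chemokine receptor of tip cells and of many leukocytes (log2 1.69, adjusted p = 4.41e-06), Dll4, the Notch ligand of tip cells (0.55, adjusted p = 0.00206), and Nid1 (0.44, adjusted p = 0.00480), a basement membrane protein. Against Sham 10 were higher and 1 lower, with Cxcr4 at 2.67 (adjusted p = 5.60e-10), Rhoj at 0.84 (adjusted p = 2.85e-07), Nid1 at 0.76 (adjusted p = 1.70e-06) and the lower gene Unc5b at -0.26 (adjusted p = 0.0205). Macrophages and microglia, whose markers were higher in the same libraries, also carry Cxcr4, and their part was not tested.

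**Figure D3:**
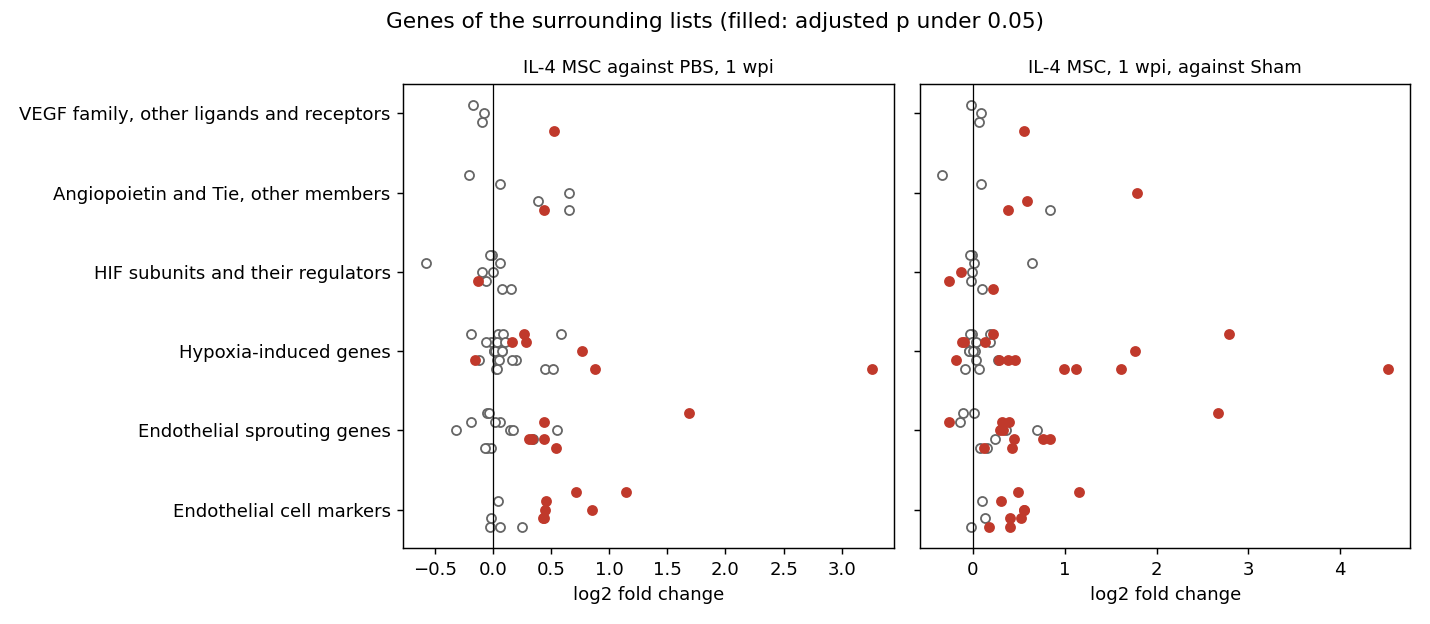
Each point is 1 gene of the list named on the vertical axis, placed by its log2 fold change (horizontal axis) in IL-4 MSCs at 1 wpi against PBS (left) or Sham (right), and filled where the adjusted p was under 0.05. Among the 12 endothelial cell markers 7 points on the left and 9 on the right are filled, all to the right of 0, and among the 10 HIF genes 1 and 3 are filled.

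The receptors Flt1, Kdr and Tek are made mainly by endothelial cells, and endothelial markers moved in the same libraries. The 12 markers, which hold none of the 10 genes, summed to 284 to 356 CPM in IL-4 MSCs at 1 wpi, 229 to 244 CPM in PBS, 236 to 289 CPM in MSCs and 220 to 256 CPM in Sham. None of the 12 was at or under the level of 3 counts in every library of a group. Of the 12, 7 rose and 0 fell relative to PBS in that group, with Pecam1, an adhesion molecule of endothelium and also of leukocytes and platelets, at log2 1.14 (adjusted p = 3.83e-11), and the tight junction gene Cldn5 at 0.85 (adjusted p = 5.89e-06). From 1 to 3 wpi in IL-4 MSCs 9 of the 12 fell, where 33% of all tested genes were called. Of 10 markers of pericytes and smooth muscle, the mural cells that are a main source of Angpt1, 2 rose and 2 fell relative to PBS.

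The receptors were also set against the summed markers. Flt1 was 36.6 ± 2.50% of the summed endothelial CPM in IL-4 MSCs at 1 wpi and 36.1 ± 2.08% in PBS (SD, n = 5, exact permutation p = 0.722). Kdr was 8.03 ± 1.21% against 7.29 ± 1.60% (exact permutation p = 0.397), and Tek was 6.10 ± 0.338% against 6.26 ± 0.710% (exact permutation p = 0.690). Of the 60 tests of ratios 10 had an unadjusted p under 0.05, and the lowest adjusted p was 0.238. Since 5 mice against 5 cannot go below 0.00794 unadjusted, a single ratio could not have passed the correction, and the lack of calls does not show that the shares were alike. The lowest p, at that limit, was for Flt1 at 35.8 ± 1.24% in MSCs at 1 wpi against 39.3 ± 1.45% in Sham (exact permutation p = 0.00794). Tek was 6.10 ± 0.338% in IL-4 MSCs at 1 wpi against 6.90 ± 0.532% in Sham (exact permutation p = 0.0238) and against 6.77 ± 0.263% in IL-4 MSCs at 3 wpi (exact permutation p = 0.0159). When the mean log2 CPM of the 12 markers was added to the fit as a covariate, a choice made after the data were seen, 1 of the 10 genes was called in the IL-4 MSC to PBS comparison at 1 wpi, Vegfa (log2 0.73 ± 0.12, adjusted p = 0.000567), where 1.37% of all tested genes were called. Flt1 was then at 0.18 ± 0.069 (adjusted p = 0.362), Kdr at 0.17 ± 0.23 (adjusted p = 0.948), Angpt2 at 0.10 ± 0.26 (adjusted p = 0.972) and Tek at 0.26 ± 0.15 (adjusted p = 0.771). Vegfa was also the single gene called with this covariate against MSCs (log2 0.62 ± 0.10, adjusted p = 0.000397) and against Sham (0.41 ± 0.12, adjusted p = 0.0288). In these, 1.86% and 10.5% of all tested genes were called. The covariate differed between the groups compared and raised the standard errors, and whether endothelial cells were more numerous or carried more RNA was not tested.

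**Figure D4:**
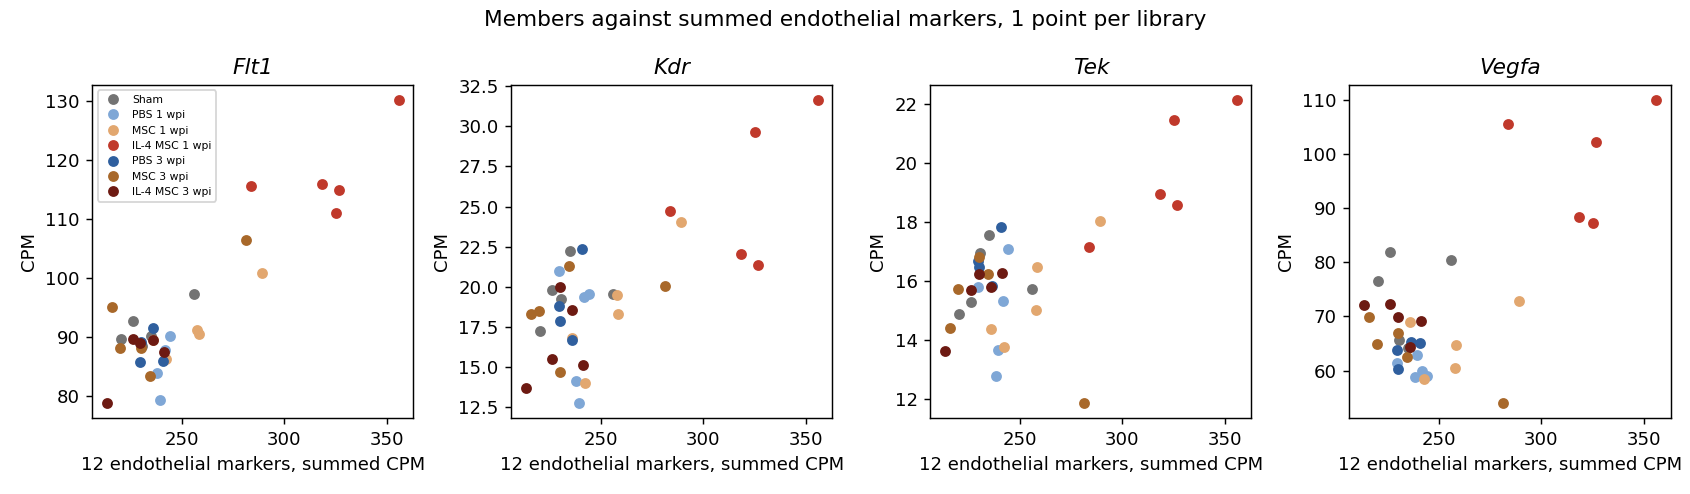
Each panel plots the CPM of 1 gene (vertical axis) against the summed CPM of 12 endothelial cell markers (horizontal axis), with 1 point per library coloured by group. The IL-4 MSC libraries at 1 wpi lie at 284 to 356 CPM on the horizontal axis and at 87.2 to 110.0 CPM in the Vegfa panel, and the MSC libraries at 1 wpi lie at 236 to 289 CPM and 58.5 to 72.9 CPM.

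Across the 34 libraries, the genes whose log2 CPM followed each member most closely were listed by Pearson's r, as a description with no test, since the libraries share groups and the list keeps the highest of all genes. Flt1 was followed most closely by Pecam1 (r = 0.873), Nos3 (r = 0.857), the endothelial nitric oxide synthase, and Pim1 (r = 0.856). Kdr was nearest to Ets1 (r = 0.855), a transcription factor of the ETS family, Arhgap29 (r = 0.840) and Cldn5 (r = 0.804), and Tek to Serpinb1a (r = 0.765), Mcam (r = 0.744), an adhesion molecule of vessels, and Arhgap29 (r = 0.724). Vegfa was nearest to Retnla (r = 0.814), a gene that macrophages switch on in response to IL-4, then to Stx4a (r = 0.801) and Gatm (r = 0.795). Hif1a was nearest to Cd36 (r = 0.904), a scavenger receptor, Nes (r = 0.898), an intermediate filament gene of reactive and progenitor cells, and Plod2 (r = 0.894), a collagen-modifying enzyme. Angpt2 was nearest to Crybg1 (r = 0.868), Soat1 (r = 0.845) and Glmp (r = 0.834), Pgf to Hdac1 (r = 0.851), Sdc3 (r = 0.844) and Slc2a9 (r = 0.833), and Angpt1 to Sdc3 (r = 0.804), Slc14a1 (r = 0.803) and Lrig1 (r = 0.797). The nearest genes to Vegfb were Ndufa5 (r = 0.782), Rpusd1 (r = 0.761) and Ubl7 (r = 0.743), and those to Vegfc, with the weakest likeness of the 10, were Mars (r = 0.623), Pgk1 (r = 0.607) and Psma5 (r = 0.598).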

How the data were processed

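The authors trimmed 50 bp paired-end reads with cutadapt 2.4, assigned them with kallisto 0.46 to protein-coding GENCODE transcripts of GRCm38, and deposited estimated counts and TPM for 21203 genes in 34 libraries, of 35 labelled samples. The remaining sample, a PBS mouse at 3 wpi, was excluded by the authors. The 63 deposited columns of the authors' own comparisons, which hold fold changes, p-values and q-values, were not used. Estimated counts were rounded and tested with edgeR 4.0.16 (quasi-likelihood test, TMM normalization, filterByExpr, 1 mean per group, all 34 libraries), with 15 comparisons between groups and 3 interaction contrasts, two-sided. The authors' own tests were made with sleuth 0.30. CPM divided the counts by the library's total. Intervals cover 95%. Levels between genes used the deposited TPM. Ratios were compared by two-sided exact permutation of libraries. On simulated data for IL-4 MSCs against PBS at 1 wpi over 17037 genes, 30 of 50 genes changed 1.25-fold, 39 of 50 changed 1.5-fold and 42 of 50 changed 2-fold were recovered.

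Replicates were separate mice, and 66 pairs within groups differed by more than counting noise, with a chi-square per gene of 3.23 or more. Intervals of differences come from the fit and include the spread between mice, while the floor of 3 counts covers counting error only. The 10 genes, the pathway lists and the marker lists were chosen with earlier results of these data known. Aldoa, with 2 entries in the table, was left out of its list. Named genes were all 10 members and the 3 genes of highest Pearson's r with each member. Of each pathway list, at most 3 called genes with the largest log2 fold change in each direction were eligible, in IL-4 MSCs at 1 wpi against PBS and against Sham. Not all eligible genes are named. Other listed genes are given where their level is needed beside a result. Alternatives were DESeq2 size factors, library size alone, DESeq2 1.42.0, limma-voom (limma 3.58.1), no filter, a filter of 10 counts in every library of a group, only the groups compared, Sham of the same week, the replicate number as a block, striatum markers as a covariate, and each library left out. Covariates of choroid plexus and endothelial markers were added after seeing the data. Promoter letters came from RefSeq. Estimated counts lay more than 0.01 from a whole number in 33 of 34 libraries for Angpt2, 34 of 34 for Flt1 and Vegfa, 2 of 34 for Hif1a and 0 for the other 6 genes.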

Additional observations from a re-analysis of the deposited data

Results flagged for a closer look

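The difference between IL-4 MSCs and the other treatments changed with time for 7 of the 10 genes, by a test of the interaction (edgeR's quasi-likelihood test). Against PBS the log2 difference at 1 wpi exceeded that at 3 wpi by 0.54 for Vegfa, 0.81 for Pgf, 0.43 for Flt1, 0.73 for Kdr, 0.82 for Angpt2 and 0.46 for Tek. Against MSCs it did so by 0.44 for Vegfa, 0.73 for Pgf, 0.42 for Flt1, 0.62 for Kdr, 0.79 for Angpt2 and 0.24 for Hif1a. The 7 genes are those called in either contrast, 6 in each, where 4.72% (PBS) and 7.86% (MSCs) of all tested genes were called. The IL-4 MSC libraries enter both contrasts. At 3 wpi the differences of the genes listed for each contrast were negative except for Vegfa, and none was called. Each count fell to 3 without certain single libraries and to 0 with endothelial markers as a covariate. With that covariate 0.286% (PBS) and 0.73% (MSCs) of all tested genes were called.

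Single libraries stood apart from the others of their group in 7 of the 70 combinations of gene and group examined by Dixon's criterion, which flags about 1 in 20 by chance. At 1 wpi these were IL-4 MSCs replicate 1 for Flt1 (130.2 CPM, highest), IL-4 MSCs replicate 0 for Hif1a (128 CPM, highest) and MSCs replicate 3 for Vegfb (36.3 CPM, highest, in a group with a narrow spread). At 3 wpi they were PBS replicate 0 for Pgf (2.84 CPM, highest) and, in IL-4 MSCs, replicate 3 for Flt1 (78.8 CPM, lowest) and Tek (13.6 CPM, lowest) and replicate 1 for Angpt2 (4.37 CPM, highest). IL-4 MSCs replicate 3 at 3 wpi was lowest for Flt1, Kdr, Angpt1, Angpt2, Tek, Hif1a and Pgf.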

How the results depend on the processing

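The count of called genes stayed within 1.5 times its value in 191 of 204 combinations of a comparison and an alternative other than a left-out library. A count of 0 that stayed 0 was taken as unchanged, and many comparisons had 0 called in the main fit. The 191 therefore says little about the comparisons with calls. With endothelial markers as a covariate the count was 1 in IL-4 MSCs at 1 wpi against Sham, PBS and MSCs each, 2 between the times in IL-4 MSCs, 0 in both interaction contrasts of IL-4 MSCs (with Vegfa at 0.60 and 0.49, no smaller than before) and 1 in MSCs at 1 wpi against Sham. The share of all tested genes called was lower too, at 10.5%, 1.37% and 1.86% against Sham, PBS and MSCs. It was 4.66% between the times, 0.286% and 0.73% in the interactions against PBS and MSCs, and 13.8% in MSCs against Sham. Kdr in IL-4 MSCs at 1 wpi against Sham then turned to -0.0389 on the log2 scale, the 1 reversal found. With Sham of the same week only, fewer libraries entered. At 1 wpi 1 gene (Vegfb) was called for PBS and 0 for MSCs, and at 3 wpi 1 gene (Vegfa) for MSCs. In these, 11.2%, 17% and 0.369% of all tested genes were called. With only the groups compared, 1 was called in MSCs at 1 wpi against Sham, where 15.9% of all tested genes were. DESeq2 called 7 for IL-4 MSCs against MSCs at 1 wpi (9.28% of all tested genes). Striatum markers as a covariate left 3 in the interaction against MSCs (6.23% of all tested genes). Apart from the constructions named, the cause was not tested.

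Leaving out 1 library gave 5 to 6 genes in IL-4 MSCs against PBS at 1 wpi, 2 to 6 against MSCs, 6 to 8 against Sham and 8 to 8 between the times. It gave 2 to 4 in PBS and 0 to 2 in MSCs against Sham at 1 wpi, 0 to 2 in IL-4 MSCs against PBS and against MSCs at 3 wpi, 3 to 7 in the interaction against PBS and 3 to 6 in that against MSCs. Of single genes, 460 of 542 values under the other alternatives and 494 of 594 with a library left out kept their direction and call.

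Replicate numbers are shared between groups but did not pair the mice: deviations of same-numbered libraries correlated with a median r of 0.0226 and a minimum of -0.299, and 7 of 34 libraries correlated best with their own number. With the replicate block, 6, 5 and 8 genes were called in IL-4 MSCs at 1 wpi against PBS, MSCs and Sham. In this setting 18.4%, 9.07% and 38.1% of all tested genes were called. Scaling by library size alone raised the share of all called genes that were higher from 64.5% to 83.9% in IL-4 MSCs against PBS at 1 wpi and from 49.9% to 77.2% against Sham, with the median of all genes at 0.03 and 0.05. This scaling called 6 and 8 of the 10, where 16% and 32.2% of all tested genes were called. The least abundant genes, Vegfc, Pgf and Angpt2, rest on the fewest counts and had the widest intervals with Kdr.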
